A study of Mus musculus with 6 samples.

Results

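PDGF, FGF and HGF signals were followed in primary mouse pancreatic stellate cells (PSCs) through 10 genes. These were the PDGF ligands Pdgfa, Pdgfb, Pdgfc and Pdgfd, the PDGF receptor Pdgfrb, the FGF ligands Fgf2, Fgf7 and Fgf10, the FGF receptor Fgfr1, and Hgf. They were given by symbol, with no threshold on a measured value, and matched by Ensembl ID to the GENCODE M21 annotation, which found all 10 among the 55426 features of the table. All 10 were among the 16207 genes with enough counts to test.

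PSCs are the resident fibroblast-like cells of the pancreas and one source of cancer-associated fibroblasts in pancreatic ductal adenocarcinoma (PDAC). The PSCs were wild-type C57BL/6 lines of early passage, isolated from male and female mice, and shared a transwell dish with organoids of mT3, a tumor line derived from mouse PDAC. Bulk mRNA was sequenced from 3 samples kept at 21% O2 (normoxia) and 3 kept at 1% O2 (hypoxia) for 48 h, to ask how low oxygen changes PSCs beside tumor cells. No sample held PSCs without tumor organoids, so every value refers to cocultured cells.

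PDGF ligands are secreted dimers that drive stellate cells to divide and migrate. PDGF-A and PDGF-C act mainly through the receptor PDGFRα, PDGF-D acts mainly through PDGFRβ, and PDGF-B binds both, while PDGF-C and PDGF-D are released latent and need cleavage by a protease. FGF7 and FGF10 are made by mesenchymal cells for the epithelial splice form of FGFR2, FGF2 binds FGFR1 among other receptors, and HGF, also a mesenchymal product, binds MET on epithelial and tumor cells.

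Promoter sequence of 3 of the genes is shown because they stand for the different directions described below: Pdgfa was higher in hypoxia, Fgf10 and Hgf were lower. The windows come from RefSeq on build GRCm38.p6, run 5′ to 3′ on the gene's strand, and were cut to bases that no annotated exon of the gene covers. Capitals mark a GC box, the letters GGGCGG read on either strand. The Pdgfa stretch is part of the second of its 2 windows, and the GC boxes of both Pdgfa windows, 1 and 2 in number, lie outside it. The Pdgfa stretch lies at chr5:138995038-138995194 on the minus strand, the Fgf10 stretch at chr13:118714449-118714698 on the plus strand, and the Hgf stretch at chr5:16553245-16553494 on the plus strand.
Pdgfa: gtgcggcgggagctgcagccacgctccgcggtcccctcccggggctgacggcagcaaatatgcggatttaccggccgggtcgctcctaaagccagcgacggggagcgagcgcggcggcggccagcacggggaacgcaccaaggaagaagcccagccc
Fgf10: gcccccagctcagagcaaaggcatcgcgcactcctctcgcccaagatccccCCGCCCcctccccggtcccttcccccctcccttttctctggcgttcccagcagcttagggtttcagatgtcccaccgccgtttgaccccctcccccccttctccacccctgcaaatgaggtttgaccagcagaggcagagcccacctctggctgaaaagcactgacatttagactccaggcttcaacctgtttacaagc
Hgf: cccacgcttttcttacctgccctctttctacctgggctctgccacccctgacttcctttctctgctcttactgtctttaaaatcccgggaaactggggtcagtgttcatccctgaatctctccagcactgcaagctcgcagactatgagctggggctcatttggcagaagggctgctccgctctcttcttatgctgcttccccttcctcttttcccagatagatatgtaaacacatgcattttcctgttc
One form of the hypoxia response element core, ACGTG on either strand, was in 0 of the 9 windows of 300 bases found for 7 of the 10 genes. Of all 32851 promoter windows of that length, 19.6% held it. The other form, GCGTG, was not counted, and the printed Pdgfa and Hgf stretches hold it on the other strand, as CACGC. A GC box was in the 250 bases before the start in 4 of the 9 windows, against 32.7% of all windows. A match or its absence describes these letters in this window only. No window was found for Pdgfb, Pdgfrb or Fgfr1.

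The libraries held 24749601 to 31925054 counts, so that 3 counts corresponded to 0.0943 to 0.122 CPM. CPM is a gene's count scaled to the library's size as edgeR computes it, and a gene was called changed when it differed over 1.5-fold with an adjusted p under 0.05. Adjusted p-values are from edgeR's quasi-likelihood test with Benjamini-Hochberg correction over all tested genes, and measure the spread between these samples, which may be technical. The oxygen labels were checked on textbook hypoxia genes such as Car9 and Vegfa, of which 8 of 8 were called higher, with a median log2 fold change of 2.11. All 10 fibroblast and stellate cell markers were expressed, with a summed level of 27900 to 35000 CPM in normoxia and 30100 to 34800 CPM in hypoxia, and 2 of them were called higher and 2 lower, where 18.9% and 15.3% of all tested genes were.

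In edgeR, 0 of the 10 genes passed the call in either direction, where 34.2% of all tested genes did. DESeq2 and limma-voom also called 0 of the 10. An unadjusted and an adjusted p under 0.05 were each reached by the same 8 of the 10, with changes smaller than 1.5-fold, against an adjusted p under 0.05 in 62.7% of all tested genes. Pdgfa, Fgf2 and Fgfr1 were the 3 on the higher side in hypoxia, and Pdgfc, Pdgfd, Pdgfrb, Fgf10 and Hgf the 5 on the lower side. For 6 of the 10 genes normoxic and hypoxic samples were fully separate, against 68.9% of all tested genes. The median log2 fold change of the 10 was -0.18, where that of all tested genes was -0.0040. For Pdgfc, Pdgfd, Pdgfrb, Fgf7 and Fgf10 the 95% interval of the change lay within 1.5-fold in both directions, a log2 value of 0.585, and for the other 5 it reached beyond.

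**Figure D1:**
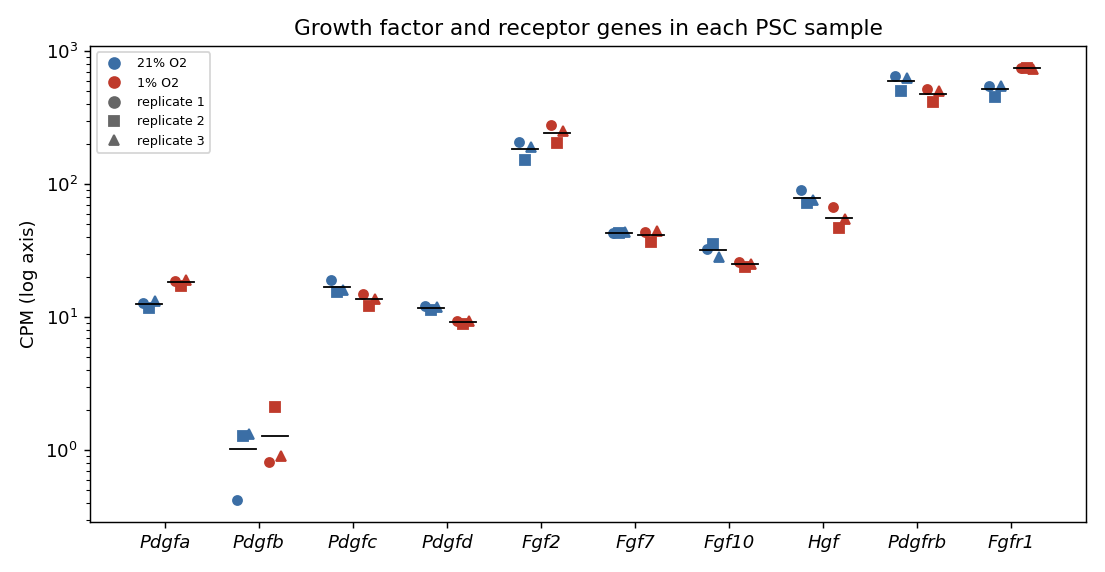
Level of each of the 10 genes in the 6 samples, in CPM on a log axis, with points for samples and a line for the mean of each condition. All hypoxic samples lie above all normoxic samples for Pdgfa and Fgfr1 and below them for Pdgfc, Pdgfd, Fgf10 and Hgf.

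Among the PDGF ligands, Pdgfa stood apart from Pdgfc and Pdgfd in direction. Pdgfa (ENSMUSG00000025856, chr5:138976014-138997370, minus strand) was at 12.9, 11.7 and 13.2 CPM in normoxia and at 18.7, 17.2 and 19.1 CPM in hypoxia. The lowest hypoxic sample lay well above the highest normoxic one, and the log2 fold change was 0.54 (SE 0.08, adjusted p = 0.000456), or 1.46-fold, just under the call. In annotation, 813 exonic bases of Pdgfa lie opposite the antisense gene 6330403L08Rik, which itself had a log2 fold change of 0.56 (SE 0.12, adjusted p = 0.00292), from 10.7 ± 0.507 to 15.8 ± 2.52 CPM (SD, n = 3 each). Whether the counting used strand was not given in the sources used here, so reads of Pdgfa and its antisense partner cannot be told apart there.

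Pdgfc and Pdgfd, the ligands that a protease must activate, were both lower in hypoxia. Pdgfd (ENSMUSG00000032006, chr9:6168584-6378850, plus strand) was at 12.2, 11.3 and 11.9 CPM in normoxia and at 9.42, 8.90 and 9.33 CPM in hypoxia. These values did not overlap, and the log2 fold change was -0.36 (SE 0.09, adjusted p = 0.00584). Pdgfc (ENSMUSG00000028019, chr3:81036416-81214040, plus strand) was at 19.1, 15.5 and 16.1 CPM in normoxia and at 15.0, 12.2 and 13.6 CPM in hypoxia. The lowest normoxic and the highest hypoxic sample of Pdgfc lay close together, and its log2 fold change was -0.31 (SE 0.11, adjusted p = 0.0324). For Pdgfc the adjusted p was 0.114 without normoxia replicate 1, 0.103 without hypoxia replicate 2 and 0.0792 without hypoxia replicate 3.

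Pdgfb (ENSMUSG00000000489, chr15:79995874-80014977, minus strand), the ligand that binds both PDGF receptors, was the least abundant of the 10. It had 11, 34 and 33 counts in the normoxic libraries and 21, 66 and 29 in the hypoxic ones. The conditions overlapped, and the log2 fold change of 0.35 had a 95% interval from -0.74 to 1.43 (SE 0.48, adjusted p = 0.549). The interval leaves a change of either sign possible for Pdgfb, which turned to -0.23 without hypoxia replicate 2 and to -0.03 without normoxia replicate 1.

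Scaled to exon length as RPKM, the summed level of the 4 PDGF ligands was 11.3 ± 0.587 in normoxia and 11.8 ± 0.470 in hypoxia (SD, n = 3 each). Within that sum, Pdgfa made up 34.8%, 35.01% and 36.8% at 21% O2 and 49.3%, 49.0% and 51.1% at 1% O2. Pdgfd made up 32.7%, 33.6% and 32.8% in normoxia and 24.7%, 25.1% and 24.7% in hypoxia. The share of Pdgfc was 29.2% ± 2.14 in normoxia and 22.7% ± 1.54 in hypoxia, and Pdgfb stayed the smallest part, at 2.19% ± 1.15 and 2.66% ± 1.60. With longest transcripts in place of exon unions, the mean Pdgfd share was 25.1% in normoxia and 18.3% in hypoxia, and the mean ratio of Pdgfa to Pdgfd 1.62 and 3.02, where exon unions gave 1.08 and 2.01. With exon unions the ligand sum was nearly level while Pdgfa took a larger part of it in every hypoxic sample.

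**Figure D2:**
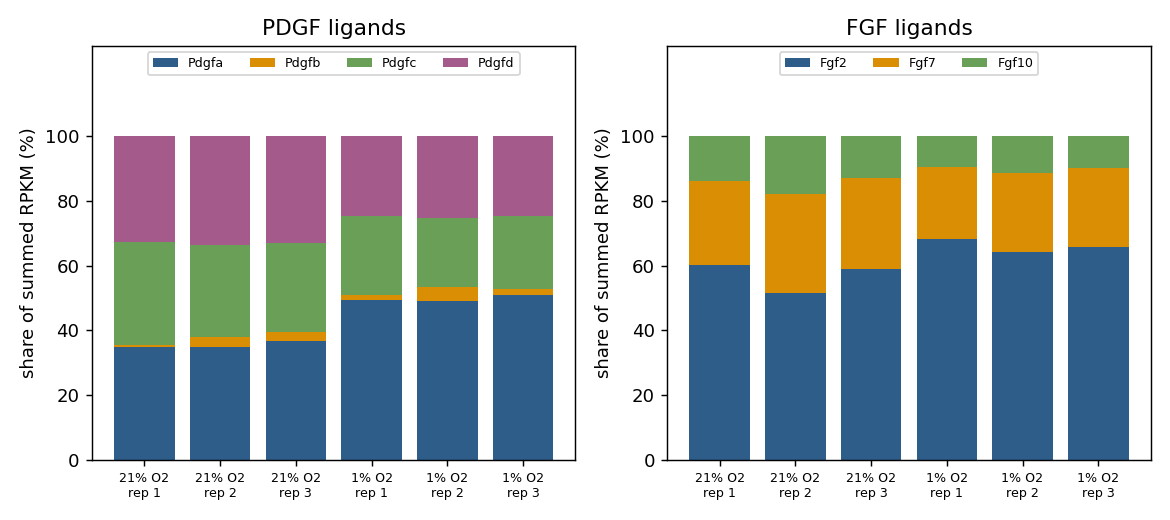
Share of each ligand in the summed RPKM of the 4 PDGF ligands and of Fgf2, Fgf7 and Fgf10, in percent, as one stacked bar per sample. The Pdgfa part is 35.5% ± 1.12 in normoxia and 49.8% ± 1.10 in hypoxia, and the Fgf2 part 56.9% ± 4.60 and 66.2% ± 2.04 (SD, n = 3 each).

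The receptors of these ligands differed in direction. Pdgfrb (ENSMUSG00000024620, chr18:61045150-61085061, plus strand), the receptor for PDGF-B and PDGF-D and a common marker of stellate cells, was at 654, 507 and 629 CPM in normoxia and at 521, 418 and 499.8 CPM in hypoxia. The ranges overlapped through normoxia replicate 2, and the log2 fold change was -0.31 (SE 0.11, adjusted p = 0.0330). This adjusted p rose to 0.0999 without normoxia replicate 1, 0.101 without normoxia replicate 3, 0.0979 without hypoxia replicate 2 and 0.0585 without hypoxia replicate 3.

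Pdgfra, the partner receptor for PDGF-A and PDGF-C, is not one of the 10 and did pass the call. It was at 597, 530.2 and 577 CPM in normoxia and at 1001, 957 and 1040 CPM in hypoxia, and it rose 1.76-fold (log2 fold change 0.82, SE 0.07, adjusted p = 9.79e-06). The ratio of Pdgfra to Pdgfrb, each as RPKM, was 0.499, 0.572 and 0.501 at 21% O2 and 1.05, 1.25 and 1.14 at 1% O2, so Pdgfra passed Pdgfrb in all 3 hypoxic samples. This ratio was chosen after the values were seen, as 1 of 4, and 3 samples against 3 cannot give an exact two-sided permutation p below 0.1, the value each of the 4 ratios had. With the length of the longest transcript in place of the exon union, Pdgfra to Pdgfrb went from 0.761 to 1.66.

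Of 7 PDGF receptors, decoys and activating proteases outside the 10, Pdgfra was the 1 called higher, against 18.9% of all tested genes. The list's median log2 fold change was -0.0037, and 1 gene was called lower. Plat, which encodes the tPA protease that activates PDGF-C, was at 129 ± 18.3 CPM in normoxia and 161 ± 11.7 CPM in hypoxia (SD, n = 3 each), which stayed under the call with a log2 fold change of 0.32 (adjusted p = 0.0206). Plau, the uPA protease that activates PDGF-D, had a log2 fold change of -0.03 (adjusted p = 0.830). The gene called lower was St14, for the membrane protease matriptase, at 1.01 ± 0.301 and 0.496 ± 0.227 CPM (log2 fold change -1.02, adjusted p = 0.0443). St14 had 18, 34 and 26 counts in normoxia and 12, 23 and 9 in hypoxia. It entered the test through the former, so the list's lower count is not read against all genes. St14 lost the call with DESeq2 and without any 1 of normoxia replicates 2 and 3 and hypoxia replicates 1 and 3, its adjusted p reaching 0.150.

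Of the FGF ligands, Fgf2 was higher in hypoxia, Fgf10 lower and Fgf7 close to level. Fgf2 (ENSMUSG00000037225, chr3:37348346-37410108, plus strand), a broad mitogen of fibroblasts and endothelial cells, was at 207, 152 and 192 CPM in normoxia and at 280.0, 204 and 250.04 CPM in hypoxia. The lowest hypoxic sample fell just below the highest normoxic one, and the log2 fold change was 0.41 (SE 0.13, adjusted p = 0.0226). This adjusted p was 0.0531 without normoxia replicate 2, 0.0872 without hypoxia replicate 1 and 0.0693 without hypoxia replicate 3. Fgf2 shares 640 exonic bases with Nudt6 on the other strand, which was at 4.84 ± 0.611 CPM in normoxia and 4.19 ± 0.813 CPM in hypoxia (SD, n = 3 each).

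Fgf10 (ENSMUSG00000021732, chr13:118669791-118792115, plus strand), a growth factor for epithelial buds, was at 32.5, 35.7 and 28.3 CPM in normoxia and at 26.0, 24.0 and 25.2 CPM in hypoxia. All hypoxic samples were below all normoxic ones, with a log2 fold change of -0.36 (SE 0.09, adjusted p = 0.00578). Fgf7 (ENSMUSG00000027208, chr2:126034658-126091185, plus strand), the keratinocyte growth factor, was at 42.9, 43.2 and 44.0 CPM in normoxia and at 43.6, 37.1 and 44.5 CPM in hypoxia. Apart from hypoxia replicate 2 the Fgf7 samples lay together, and the log2 fold change of -0.05 had a 95% interval from -0.22 to 0.11 (SE 0.07, adjusted p = 0.543). Together Fgf2, Fgf7 and Fgf10 summed to 47.4 ± 3.68 RPKM in normoxia and 54.4 ± 6.98 RPKM in hypoxia (SD, n = 3 each), and the ratio of Fgf2 to Fgf10 went from 4.33, 2.90 and 4.59 to 7.31, 5.76 and 6.72.

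Fgfr1 (ENSMUSG00000031565, chr8:25513654-25575718, plus strand), the main FGF receptor of mesenchymal cells, was at 548, 451 and 548 CPM in normoxia and at 742, 754 and 737 CPM in hypoxia. The hypoxic samples lay close together and above all normoxic ones, and the log2 fold change was 0.53 (SE 0.08, adjusted p = 0.000409), or 1.44-fold. Fgfr2, the receptor gene through which FGF7 and FGF10 act, was at 29.3, 30.1 and 24.8 CPM in normoxia and at 8.80, 7.88 and 6.95 CPM in hypoxia, and fell 3.58-fold (log2 fold change -1.84, SE 0.11, adjusted p = 1.57e-06). The ratio of Fgfr1 to Fgfr2 as RPKM was 19.5, 15.7 and 23.1 in normoxia and 88.2, 100.03 and 111.0 in hypoxia. Gene counts do not tell the epithelial from the mesenchymal splice form of Fgfr2, and 314 of its exonic bases overlap Ctbp2 on the same strand, which was at 48.5 ± 2.54 and 42.9 ± 1.14 CPM.

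**Figure D3:**
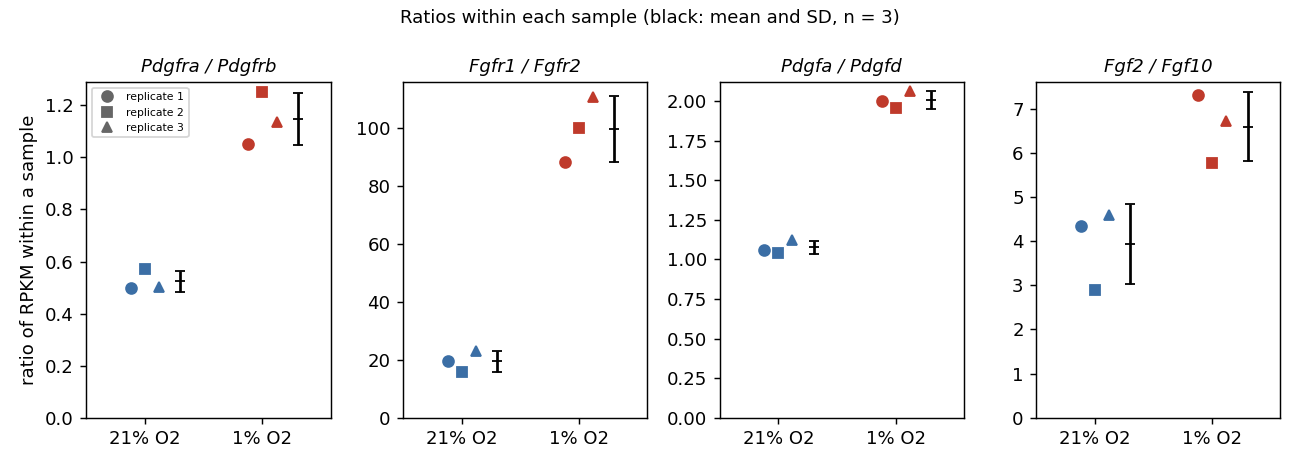
Ratio of 2 genes within each sample, from RPKM and on an axis from 0, with a point per sample and the mean and SD of each condition (n = 3) in black, for Pdgfra to Pdgfrb, Fgfr1 to Fgfr2, Pdgfa to Pdgfd and Fgf2 to Fgf10. All 3 hypoxic samples lie above all 3 normoxic ones in each pair, as for Pdgfa to Pdgfd, which was 1.06, 1.04 and 1.12 in normoxia and 2.0, 1.95 and 2.07 in hypoxia.

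Hgf (ENSMUSG00000028864, chr5:16553495-16620152, plus strand), the scatter factor that mesenchymal cells make for epithelial and tumor cells, was at 90.4, 71.9 and 76.3 CPM in normoxia. In hypoxia it was at 67.0, 46.9 and 54.8 CPM, so that no hypoxic sample reached the normoxic range. Its log2 fold change of -0.50 was the lowest of the 10 genes (SE 0.13, adjusted p = 0.00739), 1.42-fold lower. Without hypoxia replicate 1, Hgf passed the call at -0.65 (adjusted p = 0.00172), the single case in which leaving out 1 sample changed a call among the 10.

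The receptor of HGF, Met, was weakly expressed in these cells, at 8.28, 12.9 and 7.10 CPM in normoxia and 6.36, 8.17 and 7.23 CPM in hypoxia. The conditions overlapped for Met, with a log2 fold change of -0.38 (SE 0.21, adjusted p = 0.147). Leaving out 1 sample moved it between -0.09, without normoxia replicate 2, and -0.55, without normoxia replicate 3 (adjusted p = 0.0466). Of 7 tested receptors, activators and inhibitors of HGF, 1 was called higher and 1 lower. The former was Hgfac, which encodes the HGF activator protease, at 0.193 ± 0.0981 CPM in normoxia and 0.674 ± 0.204 CPM in hypoxia (log2 fold change 1.79, adjusted p = 0.00646), and the latter St14, which also cleaves HGF. Hgfac had 6, 7 and 2 counts in normoxia and 12, 21 and 28 in hypoxia and entered the test through the latter, so the list's count is not read against all genes. Both were below or near 1 CPM, the minimum set for naming genes, and are named because no other gene of the list was called. Neither the HGF inhibitor gene Spint1 (log2 fold change 0.78, adjusted p = 0.0896) nor the protease gene Hpn (adjusted p = 0.156) passed.

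**Figure D4:**
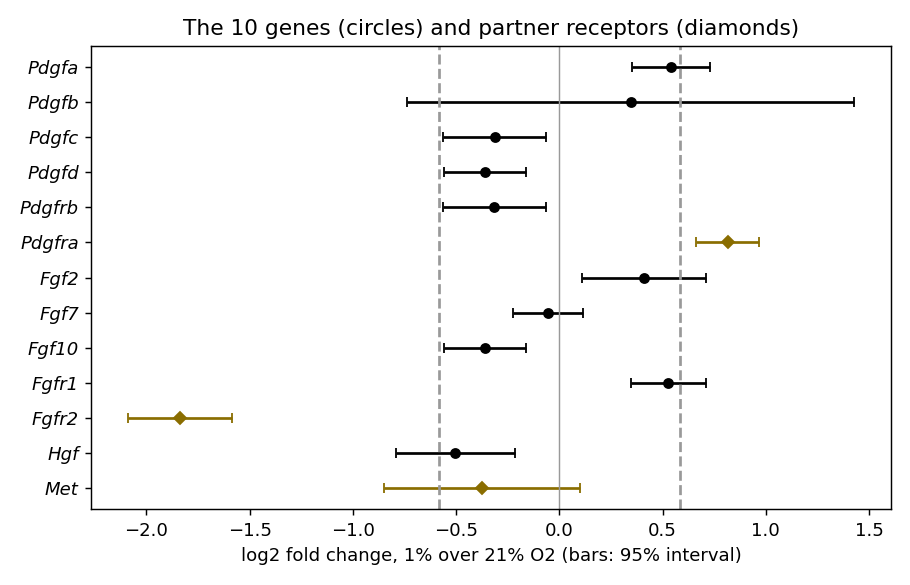
Log2 fold change of hypoxia over normoxia for the 10 genes and the partner receptors Pdgfra, Fgfr2 and Met, with 95% intervals from the edgeR fit and dashed lines at 1.5-fold. The 10 estimates lie between -0.50 and 0.54, inside the lines, while Pdgfra at 0.82 and Fgfr2 at -1.84 lie outside.

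Set in order by RPKM, Pdgfrb led in normoxia at 109 ± 14.4, followed by Fgfr1 at 52.2 ± 5.67, Fgf2 at 27.1 ± 4.17, Fgf7 at 13.3 ± 0.173 and Hgf at 11.1 ± 1.35 (SD, n = 3 each). Below these were Fgf10 at 6.99 ± 0.802, Pdgfa at 4.03 ± 0.252, Pdgfd at 3.75 ± 0.143, Pdgfc at 3.32 ± 0.377 and Pdgfb at 0.245 ± 0.124. The samples of Pdgfa and Pdgfd, and of Pdgfd and Pdgfc, overlapped, and those of the other neighbours did not. In hypoxia Pdgfa, at 5.87 ± 0.316, stood beside Fgf10, at 5.45 ± 0.219, with overlapping samples, and Pdgfrb at 87.6 ± 9.88 was closer to Fgfr1 at 75.4 ± 0.879. Part of the order depends on the length used. With the longest transcript, Hgf at 22.9 RPKM was above Fgf7 at 16.2 RPKM in normoxia, and Fgfr1 at 148 RPKM was above Pdgfrb at 88.4 RPKM in hypoxia.

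The ligands among the 10 were not the FGF genes with the largest differences. Of the other 19 FGF ligand genes, 6 had enough counts to test, and Fgf1, Fgf11, Fgf21 and Fgf23 were called higher. Fgf21 and Fgf23 had under 10 counts in every normoxic library and entered the test through their hypoxic counts, so the list's count and median are not read against all genes. Fgf9 (adjusted p = 0.269) and Fgf18 (adjusted p = 0.624) were not called. Fgf11, an intracellular family member that is not secreted and does not act through FGF receptors, was at 16.6, 20.9 and 21.1 CPM in normoxia and 199, 189 and 219 CPM in hypoxia (log2 fold change 3.37, SE 0.10, adjusted p = 4.62e-08). Fgf23, a hormone of phosphate balance made mainly by bone, had 9, 7 and 8 counts in normoxia and 274, 995 and 554 in hypoxia (log2 fold change 5.99, SE 0.52, adjusted p = 1.28e-05). Its co-receptor Kl had at most 2 counts in any library, so both groups were at or under the floor of 3 counts.

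Fgf1, which binds all FGF receptors, was at 3.27, 4.36 and 3.12 CPM in normoxia and 5.93, 6.96 and 4.84 CPM in hypoxia (log2 fold change 0.72, SE 0.19, adjusted p = 0.00879), and was under the fold threshold at 0.58 without hypoxia replicate 2. The fourth was Fgf21, a metabolic hormone under 1 CPM on average, with 2, 9 and 1 counts in normoxia and 48, 50 and 38 in hypoxia. Fgf3, Fgf4, Fgf6, Fgf8 and Fgf20 were at 0 in all 6 libraries.

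Among the other FGF receptors, co-receptors and binding proteins, 6 of 10 were tested and 3 were called lower, against 15.3% of all tested genes, with a median log2 fold change of -0.91. Beside Fgfr2, these were Fgfrl1, a receptor without a kinase domain that can bind FGF, and Flrt3, a membrane partner of FGFR1. Fgfrl1 was at 83.7, 119 and 79.8 CPM in normoxia and 34.6, 35.1 and 33.0 CPM in hypoxia (log2 fold change -1.46, SE 0.14, adjusted p = 2.22e-05). Flrt3 was at 4.20 ± 0.371 and 1.40 ± 0.170 CPM (SD, n = 3 each), with a log2 fold change of -1.58 (adjusted p = 6.66e-05). Fgfr3 had an adjusted p of 0.296, and Fgfr4 was below the tested level.

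Genes that report or restrain receptor tyrosine kinase signals included 14 feedback and ERK output genes. Of these, 1 was called higher and 1 lower, against 18.9% and 15.3% of all tested genes, with a median log2 fold change of 0.31. Spry4, an inhibitor that FGF signals induce, was at 53.6, 72.6 and 54.2 CPM in normoxia and 21.9, 21.6 and 21.7 CPM in hypoxia (log2 fold change -1.47, SE 0.11, adjusted p = 6.59e-06). Spred3, another ERK pathway inhibitor, was at 21.7 ± 3.49 and 79.6 ± 8.13 CPM (log2 fold change 1.88, SE 0.12, adjusted p = 1.91e-06). Dusp6 and Spry2, both classical FGF targets, had log2 fold changes of 0.01 (adjusted p = 0.947) and -0.03 (adjusted p = 0.813). Etv4 and Etv5, transcription factors downstream of FGF, were at 0.47 (adjusted p = 0.00153) and 0.37 (adjusted p = 0.00535), under the call.

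Of 18 adaptors and proximal signal proteins, 2 were called higher and 1 lower, against 18.9% and 15.3% of all tested genes, with a median log2 fold change of -0.04. Stat3 was at 391.7 ± 5.83 CPM in normoxia and 616 ± 7.51 CPM in hypoxia (log2 fold change 0.65, adjusted p = 7.74e-06), and Frs3, a docking protein of FGF receptors, was at 3.97 ± 0.301 and 7.66 ± 0.625 CPM (log2 fold change 0.94, adjusted p = 0.000199). Pik3r1, the regulatory subunit of PI3 kinase, was at 96.2 ± 5.30 and 54.4 ± 4.02 CPM (log2 fold change -0.82, adjusted p = 1.1e-05). SDs are over n = 3 samples per condition.

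Heparan sulfate chains hold FGF, HGF and some PDGF forms at the cell surface, and 18 genes that build and edit them were tested. Of these, 5 were called higher and 3 lower, against 18.9% and 15.3% of all tested genes, with a median log2 fold change of 0.10. Sulf2, which encodes an extracellular enzyme that removes 6-O-sulfates from the chains, was at 517 ± 28.4 CPM in normoxia and 154 ± 4.79 CPM in hypoxia, 3.36-fold lower (log2 fold change -1.75, adjusted p = 7.98e-08). Its paralog Sulf1 was on the other side, at 286 ± 53.7 and 430.3 ± 49.9 CPM (log2 fold change 0.59, adjusted p = 0.00419), at the edge of the call, which it and Hs6st2 lost in 6 of 15 other settings each, among them without normoxia replicate 2, hypoxia replicate 1 or hypoxia replicate 3. The glypican Gpc3 was at 57.8 ± 1.14 and 158 ± 5.66 CPM (log2 fold change 1.45, adjusted p = 8.52e-08), and the glypican Gpc4 at 55.4 ± 1.84 and 33.5 ± 2.85 CPM (log2 fold change -0.73, adjusted p = 2.44e-05). Hs3st1, a sulfotransferase, and Hpse, the heparanase, rose with log2 fold changes of 1.26 (adjusted p = 6.49e-06) and 0.77 (adjusted p = 2.53e-05). Extl3, a sugar transferase of chain synthesis, fell by 0.61 on the log2 scale (adjusted p = 2.88e-05) and was under the fold threshold without hypoxia replicate 2.

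**Figure D5:**
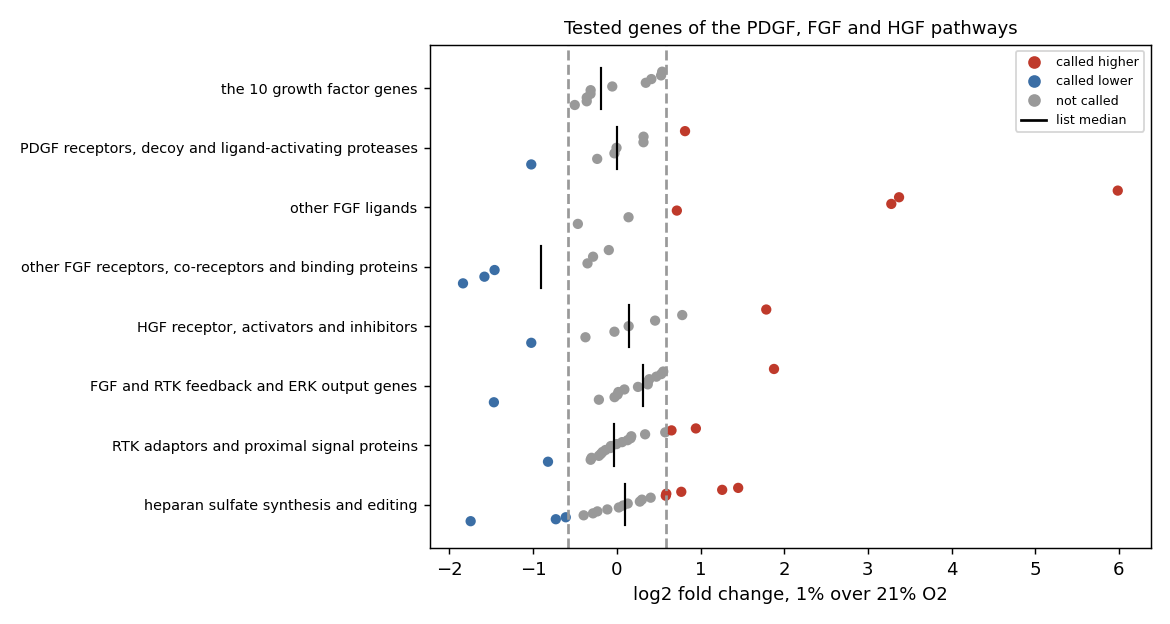
Log2 fold change of every tested gene in each pathway list, one point per gene, red where called higher, blue where called lower and grey otherwise, with black lines at the list medians, left out for the other FGF ligands, and dashed lines at 1.5-fold. Fgf23 lies highest, at 5.99, and the other FGF receptors and partners have a median of -0.91.

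In bulk RNA, fewer cells of a type and less RNA of a gene per cell cannot be told apart, so markers of other cells are given beside these results. The summed level of 10 macrophage and leukocyte markers was 862 to 1500 CPM in normoxia and 453 to 802 CPM in hypoxia, most of it from Lyz2, and 5 of the 10 were called lower, against 15.3% of all tested genes. It was highest in replicate 2 of both conditions, where 6 of the 10 growth factor genes (Pdgfa, Pdgfc, Pdgfd, Pdgfrb, Fgf2 and Hgf) were at their lowest in both conditions. The summed fibroblast and stellate cell markers were also lowest in replicate 2, at 27930 CPM in normoxia and 30050 CPM in hypoxia. The share of all tested genes that were lowest in replicate 2 of both conditions was not computed. The 10 epithelial markers summed to 0.835 to 2.31 CPM in normoxia and 21.2 to 24.8 CPM in hypoxia, nearly all of the latter from Krt19. Epcam was at 0 in 5 of the 6 libraries and Esrp1 in all, Cdh1, Krt8 and Krt18 were below the tested level, and of 2 tested markers Krt19 alone was called, from 0.715 ± 0.297 to 22.1 ± 1.66 CPM (SD, n = 3 each).

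Mural cell markers summed to 108 to 113 CPM in normoxia and 136 to 153 CPM in hypoxia, with 3 of 7 tested called higher, 2 lower and Higd1b at 0 in all libraries, beside 18.9% higher and 15.3% lower among all tested genes, shares that stand beside the lists that follow too. Endothelial markers summed to 15.7 to 21.8 and 21.8 to 30.9 CPM, with 2 of 7 tested called higher and 2 lower. Schwann and neural markers summed to 9.59 to 16.1 and 6.60 to 8.49 CPM, with 1 of 4 tested called higher and 2 lower, and the mesothelial list came to 22.1 to 30.0 and 40.6 to 42.2 CPM, nearly all from Wt1, its single tested gene, which was called higher. The part of these cells in the growth factor results was not tested.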

How the data were processed

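Samples were grouped by the oxygen treatment in the labels, 3 per condition, and replicate numbers were read from the sample titles. The authors aligned poly(A) RNA-seq reads with STAR 2.6.1b to GRCm38 and deposited RSEM 1.3.1 gene-level expected counts, of which 0 were fractional, so none needed rounding. The annotation release and strand setting of the counting are not given in the sources used here. Of 55426 features, 55240 matched GENCODE M21 by Ensembl ID and 186 did not. Pseudogenes and paralogs can share reads, which RSEM splits by estimate.

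From these counts, genes were filtered with filterByExpr, scaled by TMM and tested with the quasi-likelihood test of edgeR 4.0.16 in R 4.3.3, two-sided, with Benjamini-Hochberg correction over 16207 genes. A gene was called at a fold change over 1.5 and an adjusted p under 0.05, the thresholds in the study's methods. DESeq2 1.42.0, limma 3.58.1 (voom), other scalings, filters and fold thresholds and each left-out sample were tried. RPKM used exon union lengths of GENCODE M21. CPM standard deviations are over 3 samples. The floor (3 counts) covers counting error only, and the fold change intervals (95%) come from the fit and include the spread between samples.

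The 10 genes and the pathway and marker lists were chosen with earlier results of these data known. Named beside the 10 were Pdgfra, Fgfr2 and Met, and from each pathway list up to 3 called genes in each direction with a mean of at least 1 CPM. Other genes named, and the 4 ratios, were chosen after their values were seen. Pairs of replicates differed beyond counting noise (chi-square per degree of freedom 5.73 to 22.7), so no library was read as a copy of another. Pairs with replicate 2 differed most, at 22.7 and 16.2 in normoxia and at 12.1 and 10.2 in hypoxia. All 6 libraries were kept. The labels do not say that equal numbers mark a shared line or day. The scripts were tested on simulated data.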

Additional observations from a re-analysis of the deposited data

How the results depend on the processing

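With other scalings, filters, tests or the replicate block, 0 of the 10 genes were called, and 8 had an adjusted p under 0.05, apart from DESeq2 with the replicate block, which gave 6 (Pdgfc at 0.0550 and Pdgfd at 0.0534). Without a fold threshold, 8 of the 10 and 10168 of all tested genes were called, and at a fold of 2, 0 and 3156, beside 5547 in the whole table as reported. Leaving out each sample gave 0 to 1 called of the 10, 5 to 7 with an adjusted p under 0.05 and 5226 to 5662 genes called in all. Over these fits Pdgfb ranged from -0.23 (without hypoxia replicate 2) to 0.58 and was at -0.03 without normoxia replicate 1, and Fgf7 ranged from -0.11 to 0.021 (without hypoxia replicate 2), none of them with an adjusted p under 0.05. Pdgfa, Pdgfd, Fgf10, Fgfr1 and Hgf kept an adjusted p under 0.05 in 6 of 6 such fits, Pdgfc and Fgf2 in 3 and Pdgfrb in 2. The causes were not tested. With longest transcripts, the mean Pdgfa share was 40.6% in normoxia and 55.1% in hypoxia. Same-numbered samples correlated at 0.142, 0.139 and 0.038 in their deviations, so they were not treated as paired, although each sample correlated best with its own number. The replicate block gave 5572 called genes, 5467 of them shared, and changed no call among the 10. In edgeR with the block, the adjusted p was 0.00764 for Pdgfc, 0.00104 for Pdgfrb, 0.000202 for Fgf2 and 0.000146 for Hgf, lower than without it. For Pdgfd and Fgf10 it was slightly higher with the block, at 0.00676 and 0.00687. Pdgfb had the fewest counts of the 10, 11 to 66 per library, and the widest interval. Whether depth sets that interval was not tested.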
